A study of Homo sapiens with 3 samples.

Results

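The heat shock chaperone genes HSPA1A, HSPA1B, HSPA8, HSPH1, DNAJA1, DNAJB1, HSP90AA1, HSP90AB1, HSPB1 and BAG3 were followed by RNAseq in mouse xenografts of the TNBC line SUM-149. They were picked by symbol as main genes of cytosolic protein folding, and all 10 were found among the 29689 gene symbols measured. HSPA1A, HSPA1B, HSPH1, DNAJB1, BAG3, HSP90AA1 and HSPB1 were taken as the 7 heat-inducible genes, and HSPA8, HSP90AB1 and DNAJA1 as the 3 constitutive genes. The tumors grew from SUM-149 cells placed with Matrigel into the mammary fat pad of female Nu/Nu mice, which lack a thymus but keep innate immune cells and supply vessels, fat and stroma to the tumor. The vehicle tumor was mock treated, the CDK2i tumor received dinaciclib for 10 days, and the EZH2i tumor received EPZ6438 for 10 days. Dinaciclib also inhibits other CDKs. The study text on SUM-149 tumor growth names GSK343 as its EZH2i, so EPZ6438 is taken from the sample label alone. Each condition has 1 library, the labels do not say whether a library came from 1 mouse or several, and mouse age and dose are not given with the samples. No value below therefore has a replicate, no p-value was computed, and a difference between tumors cannot be told apart from a difference between mice.

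Heat shock proteins are molecular chaperones, which bind unfolded proteins and help them reach or regain their folded form. HSP70 proteins bind short exposed stretches of a client, J-domain proteins deliver the client and trigger ATP hydrolysis, nucleotide exchange factors release it, and HSP90 takes over late folding steps of kinases and steroid receptors. Under stress the transcription factor HSF1 forms a trimer and binds heat shock elements, inverted repeats of the unit nGAAn, in the promoters of the inducible genes, while constitutive relatives of the same proteins are made in unstressed cells. Cancer cells often carry high chaperone levels, and HSP90 clients include many oncogenic kinases.

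The promoters of the 10 genes carry the repeat to different degrees, and matches are shown here because the split into inducible and constitutive genes is usually tied to this element. RefSeq promoters, running from 250 bases before to 50 bases after each start, were searched on both strands for 3 alternating units (GAANNTTCNNGAA or TTCNNGAANNTTC) and for 2 units (GAANNTTC or TTCNNGAA, also counted inside a match of 3 units). A match of 3 units was found in 0.490% of 35116 promoters and in 0.608% of their 27305 genes, and a match of 2 units in 13.5% of promoters and 16.2% of genes. Of the 10 genes, which have 15 promoters in that table, 4 held 3 units, namely the inducible HSP90AA1 and all 3 constitutive genes, and 8 held at least 2 units. BAG3 and HSPH1 held neither in these windows, which says nothing of heat shock elements elsewhere. The promoters come from GRCh38.p14, each matched GRCh37 at 1 place, and coordinates below are GRCh37. Matches are in capitals, sequences read 5′ to 3′ on the strand of the gene, and the start is position 1.
HSPA1A: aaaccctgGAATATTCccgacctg
HSPA1B: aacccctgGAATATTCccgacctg
HSPA8, distal: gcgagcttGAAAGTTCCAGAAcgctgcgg
HSPA8, proximal: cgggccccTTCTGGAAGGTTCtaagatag
DNAJA1: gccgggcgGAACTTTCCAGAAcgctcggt
DNAJB1, distal: gcggggcgGAAGGTTCtggagggg
DNAJB1, proximal: gggctctgGAAGCTTCcgccggac
HSP90AA1: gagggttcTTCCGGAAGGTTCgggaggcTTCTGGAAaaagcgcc
HSP90AB1, distal: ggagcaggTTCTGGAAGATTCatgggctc
HSP90AB1, proximal: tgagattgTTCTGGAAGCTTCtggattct
HSPB1: taacgagaGAAGGTTCcagatgag

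The HSPA1A and HSPA1B windows lie at chr6:31783206-31783229 and chr6:31795402-31795425 on the plus strand, with the same 8 matching bases at −106 to −99 and −105 to −98 from the start. HSPA8 has its windows on the minus strand at chr11:122933054-122933082 and chr11:122932879-122932907, and both overlap an annotated exon outside the coding sequence. The DNAJA1 window lies at chr9:33025266-33025294 on the plus strand, and its match runs from position 4 to 16, inside the transcribed part and outside the coding sequence. DNAJB1 has its windows on the minus strand at chr19:14629271-14629294 and chr19:14629241-14629264. The HSP90AA1 window at chr14:102553434-102553477 on the minus strand holds 3 units followed by 2 more between −88 and −61. For HSP90AB1 the windows are chr6:44215507-44215535 and chr6:44215560-44215588 on the plus strand, and for HSPB1 the window is chr7:75931800-75931823 on the plus strand. The windows other than those of HSPA8 and DNAJA1 overlap no annotated exon. Of the matches found, 2 more of 2 units are not printed, in DNAJA1 at −198 to −191 and in DNAJB1 at positions 2 to 9 of another start. These matches are descriptions of the letters and not measured binding sites.

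Levels were deposited as log2 FPKM, which is fragments per kilobase of transcript and per M fragments of the library (M, 1000000) on a log2 scale, so levels can be compared between genes per length. The steps between low values place the libraries at depths of 16.8 (vehicle), 19.1 (CDK2i) and 17.5 (EZH2i) M fragments, and the 10 genes held between about 624 fragments (BAG3, CDK2i tumor) and 28016 (HSP90AB1, CDK2i tumor). A change is the difference of log2 FPKM between 2 tumors. A gene passed when its fold was above 2 and the higher of its levels was above 8 FPKM, and a spread is given for each change, the SD of the same difference over the 200 genes nearest in mean level, which holds drug effects as well as error. Counting intervals are exact 95% binomial intervals from approximate fragment numbers and cover counting error only. Against the TNBC label, all 7 epithelial markers were present, ESR1 was at 0.792 to 1.10 FPKM, and PGR was at the floor of the table in the vehicle tumor and at most at 0.00415 FPKM in the others, while the ERBB2 transcript was not absent, at 21.9 to 30.4 FPKM. Markers of fibroblasts summed to 24.4 to 38.3 FPKM over 6 genes, those of macrophages to 8.28 (vehicle), 8.15 (CDK2i) and 3.59 (EZH2i) FPKM over 6 genes, and those of endothelium to 0.466 to 0.833 FPKM over 3 genes. The fibroblast gene LUM passed as higher in CDK2i, with a change of 1.02. Of the other fibroblast genes, COL1A1 and COL1A2 were also higher there, and COL3A1 and DCN were lower. COL1A2 was at only 0.119 FPKM in the vehicle and 0.723 in the CDK2i tumor. PDGFRB held about 14 fragments in both of these tumors. The macrophage gene CD14 passed as lower in EZH2i, with a change of −1.35. CD14, at 8.02 (vehicle), 7.95 (CDK2i) and 3.15 (EZH2i) FPKM, made up most of the macrophage sums. The part of these markers in the chaperone values was not tested. Whether reads of the mouse host were separated is not given in the sources used here.

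The HSP90 genes, HSPA8 and HSPB1 had the highest levels of the 10 in all 3 tumors. HSPB1 encodes a small heat shock protein that holds unfolded proteins without ATP, and its FPKM level was 636 in the vehicle, 1011 in the CDK2i and 398 in the EZH2i tumor. HSP90AB1, the constitutive HSP90 of the cytosol, was at 443, 573 and 616 FPKM in the same order. HSPB1 ranked above HSP90AB1 in the vehicle and CDK2i tumors and below HSP90AB1 and HSPA8 in the EZH2i tumor. Summed over the 10 genes, the FPKM levels came to 1781, 2317 and 2044, which was 0.372%, 0.537% and 0.505% of each library's summed FPKM. HSPB1 alone made up 35.7% of that sum in the vehicle, 43.6% in the CDK2i and 19.5% in the EZH2i tumor. Without HSPB1 the sum of the other 9 genes was 1145, 1306 and 1646 FPKM. The order of the treated tumors in summed FPKM thus turned when this gene was left out. That order rested on the scaling. As a share of the library without ribosomal protein and mitochondrially encoded genes, the 10 genes were at 0.591%, 0.695% and 0.695%. The BAG3 level, which was at 18.7, 12.7 and 22.6 FPKM, was the lowest of the 10 in each tumor, and the other genes outside the top 4 lay between it and the HSP90 genes. Neighbours in the order lay close for HSPA8 and HSP90AA1, at 266 and 265 FPKM in the CDK2i tumor, and for DNAJB1 and HSPH1, at 52.0 and 51.5 FPKM in the EZH2i tumor, and with 1 library no spread is known against which to order them.

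**Figure D1:**
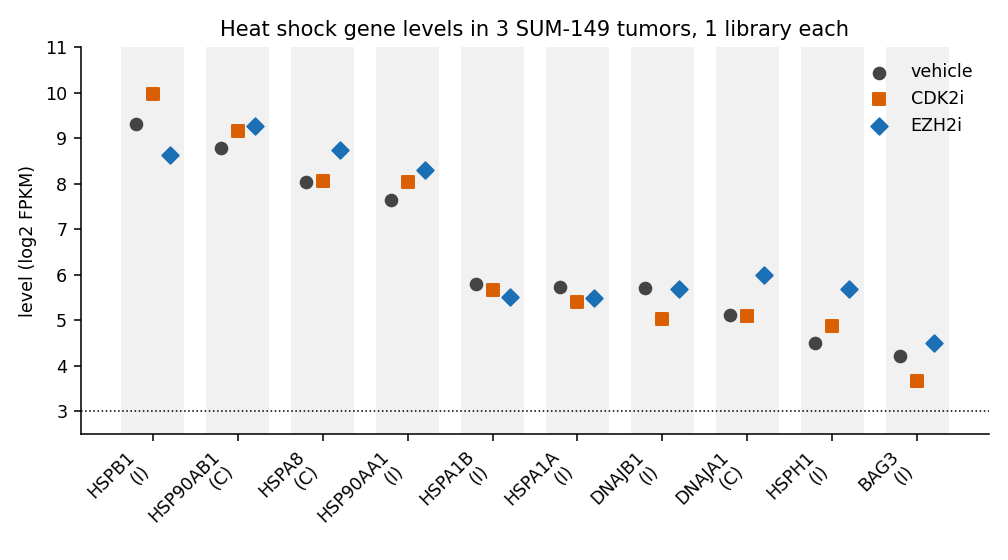
Levels of the 10 heat shock genes on a log2 FPKM axis, with 1 point per tumor (vehicle, CDK2i, EZH2i, 1 library each, no error bars) and genes ordered by their level in the vehicle tumor, marked I for inducible and C for constitutive. All points lie above the dotted expression minimum at log2 FPKM 3, and HSPB1 is the gene whose order of tumors puts CDK2i highest and EZH2i lowest.

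The first comparison asked how the chaperone genes stood in the CDK2i tumor against the vehicle tumor. None of the 10 genes passed both thresholds there, where 11.3% of the 6632 genes that could pass did (3.27% higher, 8.07% lower). The inducible genes went both ways, with 3 above and 4 below 0 and a median change of −0.14, and the constitutive genes had a median change of 0.02, beside −0.11 over all 11109 expressed genes. DNAJB1 was the only member whose change exceeded its spread. A lower fold of 1.5 brought in HSPB1 as higher and DNAJB1 as lower, where 29.4% of all genes passed (10.5% higher, 18.8% lower).

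Among the HSP70 genes, the inducible pair had lower values in the CDK2i tumor, by less than the spread, and the constitutive gene was nearly level. The sign of the HSPA1B, HSPA8 and DNAJA1 changes in this comparison turned with the scaling between libraries, and that of HSPA1A did not. HSPA1A (chr6, 31783320 to 31785723, plus strand) was at 53.0 FPKM in the vehicle, 42.1 in the CDK2i and 45.3 in the EZH2i tumor, and its CDK2i change on the log2 scale was −0.33 with a spread of 0.55. HSPA1B (chr6, 31795515 to 31798031, plus strand) was at 56.1, 51.1 and 45.9 FPKM, with a CDK2i change of −0.14. Both encode the main stress-induced HSP70, their coding sequences are 99.8% identical (4 of 1923 bases differ), and 72.4% of the 100-base stretches of the HSPA1A transcript occur in HSPA1B, so how reads were split between them cannot be known from the table. Their summed FPKM does not rest on that split, though whether reads matching both genes were counted at all is not known. The sum was 109 in the vehicle tumor and 93.2 in the CDK2i tumor, a log2 change of −0.23. HSPA8 (chr11, 122928197 to 122933938, minus strand), the HSP70 of unstressed cells, was at 263, 266 and 431 FPKM, with a CDK2i change of 0.02 and a counting interval of −0.02 to 0.05.

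The J-domain proteins and the exchange factors lay on either side of 0. DNAJB1 (chr19, 14625581 to 14671203, minus strand), a stress-induced J-domain partner of HSP70, was at 52.7 FPKM in the vehicle, 32.8 in the CDK2i and 52.0 in the EZH2i tumor, a CDK2i change of −0.68 against a spread of 0.45. BAG3 (chr10, 121410892 to 121437331, plus strand), an exchange factor that couples HSP70 to small heat shock proteins and to autophagy, had a CDK2i change of −0.56 with a spread of 0.63. The CDK2i tumor therefore had the lowest level of the 3 tumors for both genes. HSPH1 (chr13, 31709110 to 31736525, minus strand), the HSP110 exchange factor, was at 22.6, 29.5 and 51.5 FPKM, with a CDK2i change of 0.39 and a spread of 0.58. DNAJA1 (chr9, 33025271 to 33039905, plus strand), a constitutive J-domain protein, was at 34.9, 34.2 and 63.6 FPKM, with a CDK2i change of −0.03.

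The HSP90 genes and HSPB1 had higher levels in the CDK2i tumor under every scaling tried, each by less than its spread with the deposited scaling. HSP90AA1 (chr14, 102547079 to 102606036, minus strand), the inducible HSP90, was at 201 FPKM in the vehicle, 265 in the CDK2i and 317 in the EZH2i tumor, a CDK2i change of 0.40 with a spread of 0.74. HSP90AB1 (chr6, 44213903 to 44221625, plus strand) had a CDK2i change of 0.37 with a spread of 0.80. HSPB1 (chr7, 75931990 to 75933612, plus strand) had the largest positive CDK2i change of the 10, 0.67 with a spread of 0.81. The 7 epithelial markers were all above 0 in CDK2i with a median change of 0.51. KRT5, KRT14 and KRT17 passed as higher, where 3.27% of all genes did. In EZH2i, where HSPB1 was lower, 4 of the 7 were above 0. The 7 markers summed to 5248 FPKM in the vehicle, 12366 in the CDK2i and 4908 in the EZH2i tumor, most of it KRT5 and KRT14. Their part in the HSPB1 difference was not tested. In bulk tumor RNA, fewer cells of a type and less RNA per cell cannot be told apart.

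The CDK2i library stood apart in its immediate early genes, which are switched on within minutes of many stimuli, tissue handling included. The 9 genes of this list summed to 328 FPKM in the vehicle, 3205 in the CDK2i and 262 in the EZH2i tumor. In the CDK2i tumor 8 of them (FOS, FOSB, JUN, JUNB, EGR1, IER2, DUSP1 and ZFP36) passed both thresholds as higher, where 3.27% of all genes did. The median change was 3.20 over the 8 expressed. FOS, a subunit of AP-1, was at 20.5, 511 and 37.3 FPKM, and JUNB, another subunit, at 125, 1461 and 89.8 FPKM. EGR1 also passed as lower in EZH2i, with a change of −1.29. No heat shock gene of the 10 passed beside this difference. Its part in the chaperone values was not tested.

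The second comparison set the EZH2i tumor against the same vehicle tumor. HSPH1 passed both thresholds, as 1 of the 10 genes, where 13.4% of the 7414 genes that could pass did (8.93% higher, 4.42% lower). The 3 constitutive genes were all higher, with a median change of 0.71, and the 7 inducible genes had a median change of −0.02, beside 0.19 over all expressed genes. The inducible median lay 0.73 below the constitutive median on the log2 scale, against 0.15 below in the CDK2i tumor. With HSPA1A and HSPA1B summed to 1 gene these gaps became 0.59 below and 0.06 above, so the sign of the CDK2i gap rested on that choice, and the inducible median in EZH2i itself ranged from −0.21 to 0.22 with the scaling. These comparisons share the vehicle library, and the gap between the medians was not tested. At a fold of 1.5, 4 genes were higher (HSPH1, DNAJA1, HSPA8 and HSP90AA1) and HSPB1 was lower, where 36.6% of all genes passed (24.5% higher, 12.1% lower).

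HSPH1 had an EZH2i change of 1.19, a fold of 2.28, with a counting interval of 1.12 to 1.27 and a spread of 0.56. It stood at percentile 94.3 of the changes of all expressed genes, and relative to their median its change was 0.999, just under the fold threshold. HSPA8 had an EZH2i change of 0.71 with a spread of 0.68, and DNAJA1 a change of 0.87 with a spread of 0.60. With the deposited scaling, HSPH1, HSPA8 and DNAJA1 were the 3 members over their spread. They encode an exchange factor, an HSP70 and a J-domain protein of the HSP70 cycle. That set was not the same once the typical change of 0.192 was subtracted. HSPA8 then fell to 0.521, under its spread, while HSPH1 and DNAJA1 (0.675) stayed over theirs. HSPB1, at −0.868, then exceeded its spread of 0.68 on the lower side. The inducible HSP70 pair had values below 0, where the sign of HSPA1A turned with the scaling and that of HSPA1B did not. The EZH2i change was −0.23 for HSPA1A, −0.29 for HSPA1B and −0.26 for their summed FPKM, which was 91.2 in the EZH2i tumor.

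HSP90AA1 and HSP90AB1 had EZH2i changes of 0.66 and 0.48, with spreads of 0.67 and 0.67. BAG3 had an EZH2i change of 0.27 with a spread of 0.63, and DNAJB1 one of −0.02 with a counting interval of −0.11 to 0.07. HSPB1 was the only one of the 10 with a large negative value, an EZH2i change of −0.68 with a spread of 0.68, and its sign turned with the GC and length trend removed. The sign of DNAJB1 also turned with the scaling. Both HSP90 genes, inducible and constitutive, were thus on the higher side. The markers of adipocytes summed to 33.2 FPKM in the vehicle, 19.3 in the CDK2i and 3.50 in the EZH2i tumor over 3 genes, nearly all of it FABP4, with ADIPOQ at the floor in the vehicle and EZH2i tumors. Their part in the chaperone values was not tested.

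**Figure D2:**
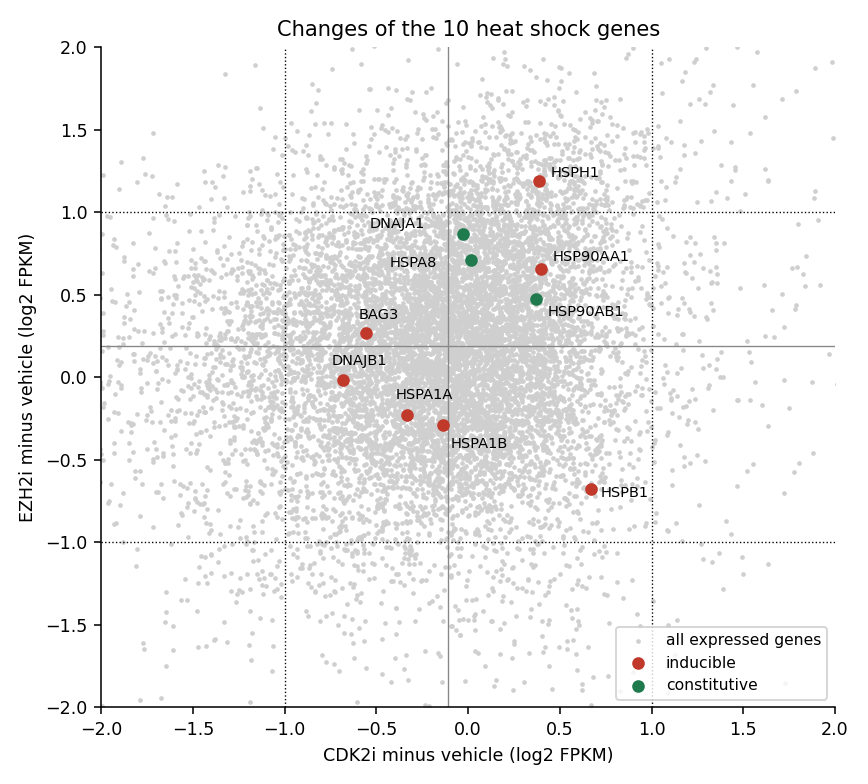
CDK2i minus vehicle (x axis) against EZH2i minus vehicle (y axis), both in log2 FPKM, for the 10 heat shock genes (inducible and constitutive in separate colors) over all expressed genes (gray), of which 326 lie outside the axes, with solid lines at the medians of all expressed genes and dotted lines at a fold of 2. HSPH1 is highest at 1.19 on the y axis, HSPB1 is the only one of the 10 at the lower right (0.67, −0.68), DNAJB1 is farthest to the left at −0.68, and both axes use the same vehicle library.

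The EZH2i changes of the 10 genes were ordered almost as the GC content of their transcripts. Spearman correlations were taken over the 10206 expressed genes with an annotated transcript, other than ribosomal protein genes. For the EZH2i change the correlation across genes was −0.581 with GC content and 0.489 with transcript length, against 0.0347 and 0.0933 for the CDK2i change. Across the 10 genes the correlation with GC content was −0.964 for EZH2i and −0.236 for CDK2i, given as a description of 10 genes measured in the same libraries. HSPH1, the gene with the largest EZH2i change, had the lowest GC content at 39.6% and a transcript of 5244 bases. HSPB1, the gene with the lowest, had the highest GC content at 65.3% and a transcript of 777 bases. When the trend with GC content and length was removed by a polynomial of degree 3, the HSPH1 change went from 1.19 to 0.45 and no gene of the 10 passed.

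The gap between the classes was smaller with the trend removed, and some genes moved more than others. HSPB1 went from −0.68 to 0.05, HSP90AA1 from 0.66 to 0.13, DNAJA1 from 0.87 to 0.44 and HSPA8 from 0.71 to 0.42. BAG3 moved little, from 0.27 to 0.35, and the inducible median lay 0.38 below the constitutive median. HSPH1, DNAJA1 and HSPA8 remained the 3 highest of the 10, at 0.42 to 0.45, each under its spread with the deposited scaling (0.56, 0.60 and 0.68). What part of these differences came with library GC content and what part with treatment cannot be told apart with 1 library per condition.

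**Figure D3:**
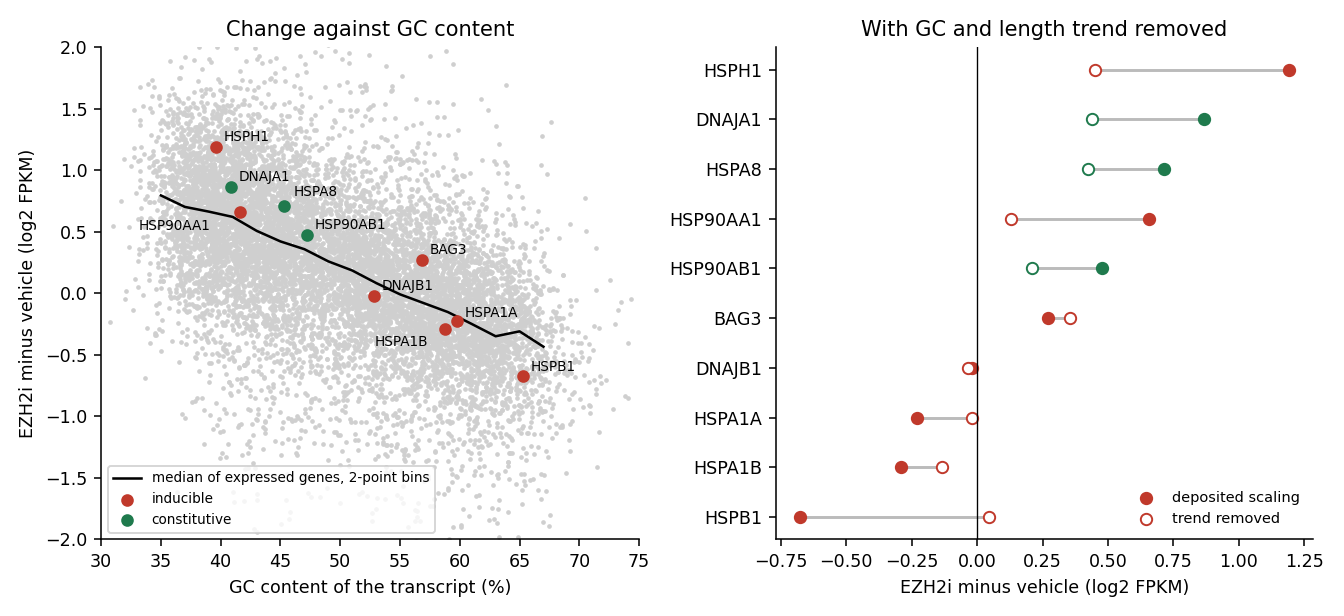
Left, EZH2i minus vehicle in log2 FPKM against the GC content of the transcript in percent for expressed genes (gray, 91 outside the axes), their median in bins of GC content (line) and the 10 heat shock genes. Right, the same change with the deposited scaling (filled) and with the GC and length trend removed (open), which brings HSPB1 from −0.68 to 0.05 and HSPH1 from 1.19 to 0.45.

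Setting the treated tumors against each other gave a different gene. HSPB1 passed as lower in the EZH2i than in the CDK2i tumor, 398 against 1011 FPKM, as 1 of the 10 genes where 24.1% of 7394 genes passed (17.5% higher, 6.53% lower). Its difference was −1.34, a 2.54-fold lower level, with a counting interval of −1.39 to −1.30 and a spread of 0.72. With the GC and length trend removed the difference was −0.67 and no gene passed, and HSPB1 was lower under each of the scalings tried. HSPH1, DNAJA1, BAG3 and DNAJB1 had differences of 0.81, 0.90, 0.83 and 0.67, each above its spread, beside a median of 0.35 over all expressed genes. Relative to that median their differences were 0.45, 0.54, 0.475 and 0.31, each below its spread (0.65, 0.63, 0.82 and 0.61). DNAJB1 and BAG3 were thus the pair with a low level in the CDK2i tumor, HSPH1 and DNAJA1 the pair with a high level in the EZH2i tumor. With the trend removed the differences were −0.045 for HSPH1, whose sign turned, 0.27 for DNAJA1, 0.72 for BAG3 and 0.41 for DNAJB1. At a fold of 1.5, 5 genes were higher (these 4 and HSPA8) and HSPB1 lower, where 47.7% of all genes passed (33.4% higher, 14.3% lower). HSPA1A and HSP90AB1 differed least, by 0.10 and 0.11.

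Ratios of an inducible gene to its constitutive partner within a library do not depend on the scaling between libraries. HSP90AA1 was at 0.454 of the HSP90AB1 level in the vehicle, 0.462 in the CDK2i and 0.515 in the EZH2i tumor, which is −1.14, −1.11 and −0.96 on the log2 scale. The HSP90 ratio was thus nearly the same in the 3 tumors. HSPA1A and HSPA1B together were at 0.415 of the HSPA8 level in the vehicle, 0.350 in the CDK2i and 0.211 in the EZH2i tumor, or −1.27, −1.51 and −2.24 on the log2 scale. The height of this HSP70 ratio rests on whether reads matching both HSPA1A and HSPA1B were counted, which is not known. DNAJB1 over DNAJA1 was 1.51, 0.959 and 0.817, or 0.59, −0.06 and −0.29. The HSP70 and J-domain ratios were lower in both treated tumors than in the vehicle tumor, the HSP70 ratio most in EZH2i. The partners differ in GC content, HSPA1A at 59.8% and HSPA8 at 45.3%, DNAJB1 at 52.8% and DNAJA1 at 40.8%, HSP90AA1 at 41.6% and HSP90AB1 at 47.2%, so these ratios also carry the EZH2i trend.

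**Figure D4:**
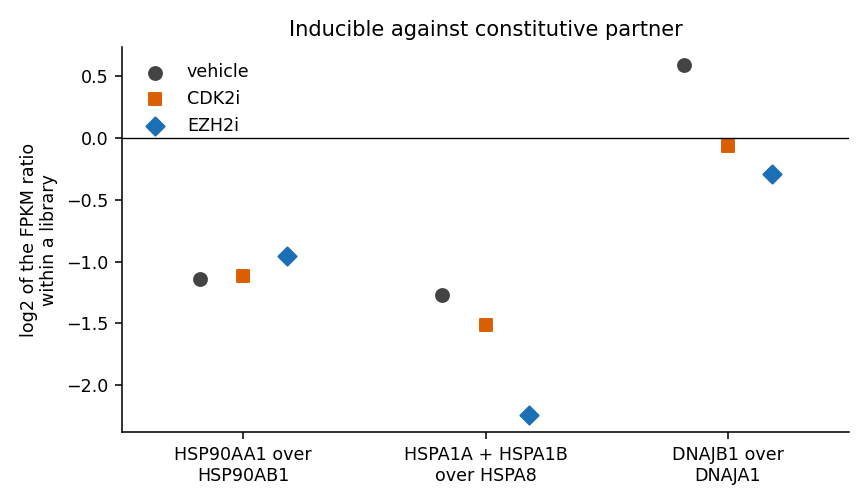
Log2 ratio of the inducible to the constitutive partner within each tumor (1 library each, no error bars) for HSP90AA1 over HSP90AB1, HSPA1A plus HSPA1B over HSPA8, and DNAJB1 over DNAJA1. The HSP90 ratio stays between −1.14 and −0.96, and the HSP70 ratio goes from −1.27 in vehicle to −2.24 in EZH2i.

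The heat shock factors HSF1, HSF2 and HSF4 and the factor-binding protein HSBP1 did not pass in either treated tumor, and their median changes were −0.01 in CDK2i and −0.24 in EZH2i. HSF1, the main activator of the heat shock genes, was at 58.0 FPKM in the vehicle, 78.4 in the CDK2i and 50.6 in the EZH2i tumor, and HSF2, a related factor, at 2.64, 1.48 and 3.20 FPKM. The HSF1 level was highest in the CDK2i tumor, where DNAJB1 and BAG3 were lowest. A transcript level does not show HSF1 activity, which is set largely after translation.

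Other heat-inducible genes, 17 expressed of 18, had median changes of 0.12 (CDK2i) and 0.23 (EZH2i). Of those that reached the minimum, 1 of 13 passed as higher in CDK2i, where 3.27% of all genes did. In EZH2i 2 of 15 passed as higher, HSPA4L and CHORDC1, where 8.93% of all genes did, and both are described below. CRYAB, a small heat shock protein of lens and muscle, was the gene that passed in CDK2i, at 10.2 FPKM in the vehicle, 24.7 in the CDK2i and 10.6 in the EZH2i tumor. HSPA6, an HSP70 nearly silent without stress, was at 0.765, 4.36 and 0.582 FPKM, about 30, 197 and 24 fragments, all levels below the expression minimum. Its CDK2i change was 2.51 with a counting interval of 1.97 to 3.13. HSPB8, a small heat shock protein that binds BAG3, was at 2.77, 6.97 and 2.42 FPKM, also under the minimum. The small heat shock proteins HSPB1, CRYAB and HSPB8 and the inducible HSPA6 were thus highest in the CDK2i tumor, while HSPA1A, HSPA1B and DNAJB1 were not. Of the small heat shock protein list, 3 genes were expressed, and the other one, HSPB11, was at 32.0, 22.1 and 29.4 FPKM, a CDK2i change of −0.53. HSPB8 and HSPB11 were named after their values were seen.

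Among related genes, 4 passed as higher in EZH2i, where 8.93% of all genes did. They were 2 of the 16 HSP70 partners and relatives that reached the minimum, 1 of 11 HSP90 co-chaperones and 1 of 11 ER chaperones, and none of TRiC or the mitochondrial chaperones. HSPA4L, an HSP110 relative of HSPH1, passed at 6.91, 6.32 and 15.0 FPKM (vehicle, CDK2i, EZH2i), and CHORDC1, an HSP90 co-chaperone, at 3.98, 4.69 and 12.1 FPKM. BAG2, an inhibitor of client ubiquitination that binds HSP70, passed at 5.91, 1.79 and 13.8 FPKM, and DNAJC3, a J-domain protein of the ER, at 5.38, 7.05 and 12.6 FPKM. Transcripts of all 4 genes were low in GC content, from 34.3% for CHORDC1 to 39.9% for DNAJC3, beside 39.6% for HSPH1. With the GC and length trend removed their EZH2i changes were 0.19 for HSPA4L, 0.96 for CHORDC1, 0.36 for BAG2 and 0.47 for DNAJC3, and none of the 4 was above a fold of 2. HSPA14 and BAG5 passed only against the CDK2i tumor, with differences of 1.11 and 1.21 that became 0.57 and 0.41 with the trend removed. In that comparison 4 of the 16 HSP70 partners and relatives that reached the minimum passed as higher, where 17.5% of all genes did.

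By group, the HSP70 partners and relatives (20 expressed) had medians of −0.32 (CDK2i) and 0.55 (EZH2i), whereas the HSP90 co-chaperones (13 expressed) had 0.24 and 0.37. The chaperonin TRiC, which folds actin and tubulin, had all 8 subunits above 0 in EZH2i with the deposited scaling, at 0.02 to 0.66 with a median of 0.53 against 0.19 over all expressed genes, and none passed. Mitochondrial chaperones (9 genes) had medians of −0.03 and 0.02, and ER chaperones (12 genes) 0.35 and 0.49. HSPD1, the mitochondrial HSP60, was at 94.5, 92.9 and 178 FPKM, while its partner HSPE1 was at 11.5, 7.48 and 11.7 FPKM. The ER chaperone HSPA5 was at 116, 121 and 164 FPKM, HSP90B1, its HSP90 counterpart, at 154, 192 and 252, and STIP1, which links HSP70 to HSP90, at 69.9, 71.8 and 88.2. None of these 5 genes passed against vehicle. With the trend removed their EZH2i changes were 0.52 for HSPD1, −0.05 for HSPE1, 0.03 for HSPA5, 0.24 for HSP90B1 and 0.32 for STIP1.

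**Figure D5:**
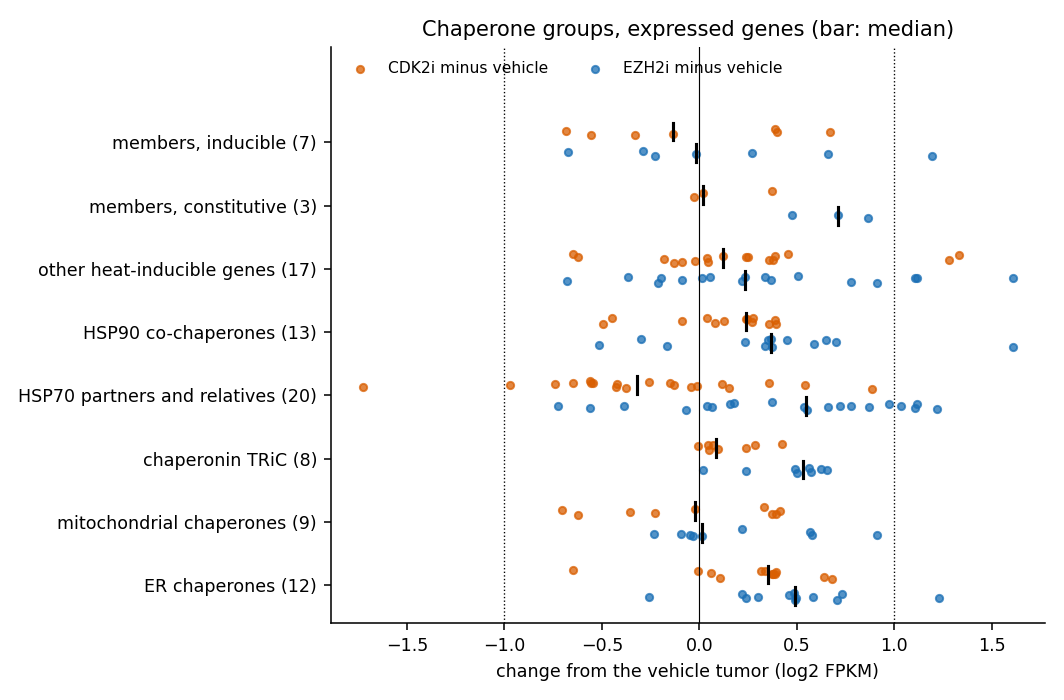
Changes from the vehicle tumor in log2 FPKM for expressed genes of 8 chaperone groups, with CDK2i and EZH2i in separate colors, 1 point per gene, a bar at the median and dotted lines at a fold of 2. With the deposited scaling, GC and length trend not removed, the EZH2i median is 0.71 for the constitutive genes and −0.02 for the inducible genes. TRiC has all 8 EZH2i points above 0.

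The 5 expressed genes outside these lists whose pair of changes lay nearest to the inducible medians (−0.14, −0.02) were PNMA1, PAN2, ZZEF1, LINC00674 and COPS7B, at Euclidean distances of 0.0114 to 0.0149 over 2 comparisons. The pattern was common, since 876 of 11004 genes lay within 0.25 of it.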

How the data were processed

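RNAseq libraries from 3 SUM-149 xenograft tumors (vehicle, CDK2i, EZH2i) were used, 1 per condition, grouped by the treatment label. The authors deposited log2 FPKM values per gene symbol, with −9 as the lowest value listed, read here as no fragment. The submitters' processing notes name CASAVA, STAR and hg19, and the counting program is not given in the sources used here. Values were used as deposited. Changes are differences of log2 FPKM with no pseudocount, and the 11109 expressed genes were those averaging above log2 FPKM 1 with none of their values at −9. A gene passed at a fold above 2 with the higher level above log2 FPKM 3. Thresholds follow the study without its p-value, since 1 library per condition gives no error. Fragment numbers are approximate, from the step of 1 fragment in low genes and the canonical transcript length of GENCODE 44 on GRCh37. Depth was 16.8 to 19.1 M fragments. GC and length trends were fitted over 10206 expressed genes other than ribosomal protein genes, with 92.6% of expressed genes annotated.

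Alternatives were another fold, expression minimum, pseudocount, scaling, class membership and trend removal. The scripts were tested on simulated data. Named genes are the 10 members, HSF1, HSF2, HSPA6, CRYAB, STIP1, HSPD1, HSPE1, HSPA5, HSP90B1, FOS, JUNB, list genes past both thresholds, and the 5 nearest patterns. Other genes (such as HSF4, HSBP1, HSPB8, HSPB11 and the markers ESR1, PGR, ERBB2 and ADIPOQ) are named to complete a list or a check. The members and lists were chosen with earlier results of these data known. Of the marker lists, HSPB2, PECAM1 and LEP had no matching symbol. Software was Python 3.11.15, pandas 2.3.3, numpy 2.4.6, scipy 1.17.1, Biopython 1.88 and matplotlib 3.10.9.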

Additional observations from a re-analysis of the deposited data

How the results depend on the processing

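No paired analysis was possible because each condition has 1 library, so there is 1 number only and no second pair, and no library could be left out of a comparison. Error between mice was not measured, and the counting intervals do not cover it. Centring on the median gene subtracted −0.11, 0.19 and 0.35 from the changes in CDK2i, in EZH2i and in EZH2i against CDK2i. The number of heat shock genes past both thresholds was 0, 1 and 1 in these comparisons. At a fold of 1.5 it was 2, 5 and 6, and at a fold of 3 it was 0 in both EZH2i comparisons. For EZH2i against vehicle it was 0 when centred, 2 with equal summed FPKM and 0 with the GC and length trend removed. For EZH2i against CDK2i it was 3 with equal sums without ribosomal protein and mitochondrially encoded genes, and 0 with the trend removed.

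The inducible median of −0.14 in CDK2i was −0.024 when centred, 0.013 with equal sums, −0.28 with sums without ribosomal protein and mitochondrial genes, 0.026 with the trend removed, −0.33 with HSP90AA1 and HSPB1 as constitutive, and 0.079 with the HSPA1 pair summed. The gap to the constitutive median, −0.15, was −0.28 with DNAJA1 as inducible, −0.70 with HSP90AA1 and HSPB1 as constitutive, and 0.063 with the pair summed. In EZH2i the inducible median of −0.02 was −0.21 when centred, 0.22 with equal sums, and 0.126 both with DNAJA1 as inducible and with the pair summed. Its gap of −0.73 was −0.38 with the trend removed, −0.47 with DNAJA1 as inducible and −0.59 with the pair summed, and stayed negative under every alternative run. For EZH2i against CDK2i the median of 0.26 was −0.09 when centred, 0.35 with equal sums, 0.44 without ribosomal protein and mitochondrial genes, −0.045 with the trend removed, 0.46 with DNAJA1 as inducible or the pair summed, and 0.67 with HSP90AA1 and HSPB1 as constitutive. Its gap of −0.44 was −0.22, 0.0625, 0.40 and −0.23 with the trend removed, DNAJA1 as inducible, HSP90AA1 and HSPB1 as constitutive, and the pair summed. The cause of these moves was not tested. Of 150 alternative values for single genes, 103 moved by more than the counting error and 47 did not, and no passing gene turned in sign. The within-tumor ratios moved less than the counting error with a pseudocount of 1.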

Other observations

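HSPA1B over HSPA1A was 1.06 in the vehicle, 1.21 in the CDK2i and 1.01 in the EZH2i tumor on the FPKM scale, for a pair whose coding sequences are 99.8% identical. Pseudogene copies in the table took at most 0.411% of the FPKM of their parent gene, a value reached by HSPB1 with 2 copies in the vehicle tumor. The pairs of changes of HSPH1 and HSPB1 had 268 and 105 expressed genes within a distance of 0.25, against 876 for the inducible medians.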
